A study of Mus musculus with 5 samples.

Results

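The regions described are the H3K4me3 peaks on chromosomes 1 to 19 of mouse epiblast stem cells that overlapped, by 1 bp or more, both a peak of H3K27ac and a peak of H3K27me3. They were chosen by the deposited intervals of these 3 lists alone and were 258 of 27970 autosomal H3K4me3 peaks (0.922%, 95% Wilson interval 0.817 to 1.04), in a list of 28941 peaks in all. The series holds chromatin immunoprecipitation and sequencing of EpiSC9, a line of epiblast stem cells grown with FGF2 at 10 ng/ml on a layer of irradiated mouse embryonic fibroblasts. Each mark had 1 library from 5000000 crosslinked cells and no replicate, so the values below describe these 4 libraries and carry no test between conditions. An input library was not analysed here. All groups are classes of peaks in the same cells and share genotype, culture and feeder layer.

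Acetylation and trimethylation compete for the same residue, lysine 27 of histone H3, so a single tail carries one or the other. H3K27ac is written by p300 and CBP at active promoters and enhancers, and H3K27me3 by Polycomb repressive complex 2 at silenced developmental genes. H3K4me3 marks CpG-rich promoters in both states, and its coincidence with H3K27me3 is known as bivalency, which is widespread in pluripotent cells. H3K4me1 lies at enhancers and along the shoulders of promoters. Epiblast stem cells represent the primed state of pluripotency, close to the epiblast after implantation. The immunoprecipitates came from many cells, and from feeder cells as far as these were carried along, so marks on the same bases of the same chromosome and marks on different alleles or cells cannot be told apart.

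In most of these peaks the marks did not meet. H3K27ac and H3K27me3 had no base in common within the H3K4me3 peak in 163 of 258 cases (63.2%, Wilson interval 57.1 to 68.8) and shared at least 1 bp in the other 95 (36.8%, 31.2 to 42.9). Of the 163, 159 had all H3K27ac on one side of all H3K27me3, and in 4 the stretches were interleaved. The 95 divided into 56 in which each mark also had bases of its own and 39 in which one mark lay entirely within the other. Counting shared bases also outside the H3K4me3 peak gave the same 36.8%. The rule that chose the peaks asked for both marks and not for their order, but it used the same lists, so these counts are a description.

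**Figure D1:**
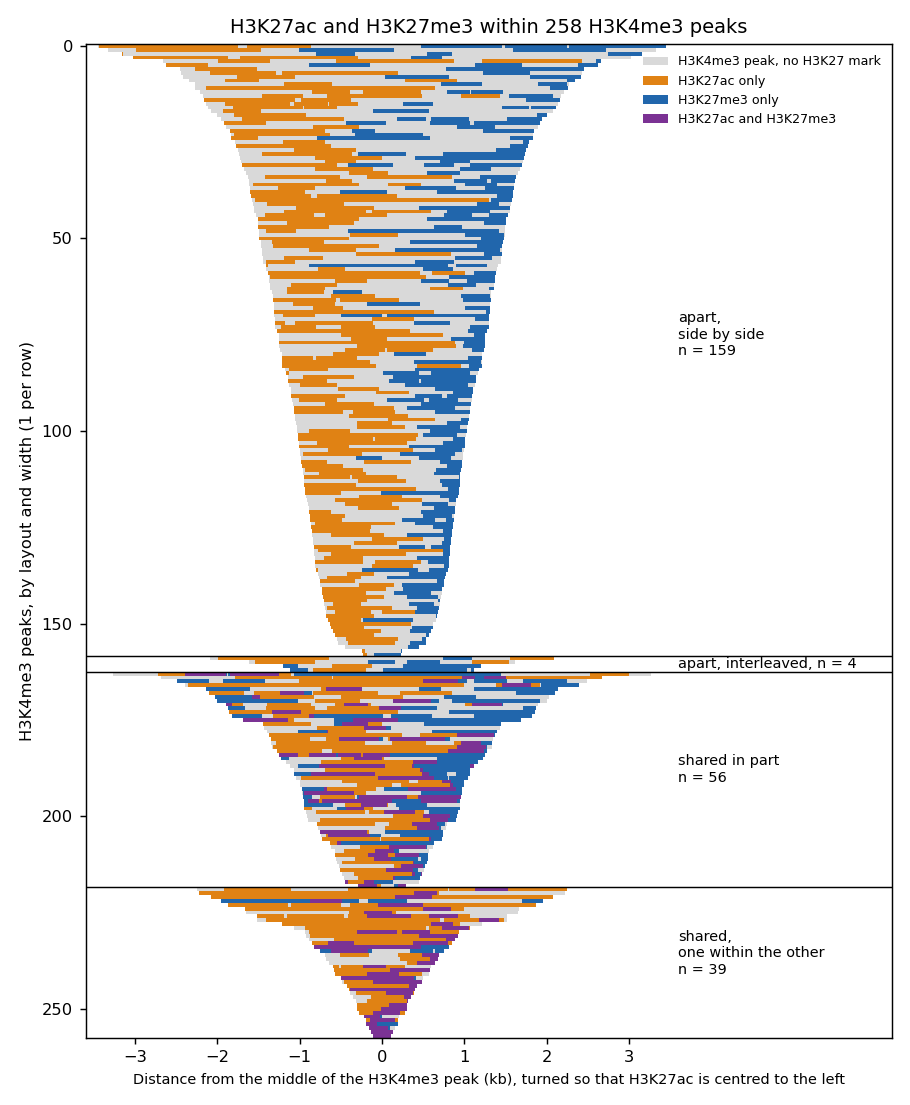
Each row is 1 of the 258 H3K4me3 peaks, drawn to scale in kb from its middle and turned so that H3K27ac is centred to the left; grey is H3K4me3 without an H3K27 mark, orange H3K27ac, blue H3K27me3 and purple both. In the upper 159 rows orange lies to the left of blue, with grey between them in most rows, and purple appears in the lower 95 rows, which belong to narrower peaks on the whole.

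Most marks that stayed apart were centred on opposite sides of the middle, and fewer reached opposite ends. Being apart already makes such centres likely, and no share to compare with was computed. The centres of the covered bases fell on opposite sides of the middle of the peak in 152 of the 163 (93.3%, 88.3 to 96.2), which is 58.9% of all 258 (52.8 to 64.7). Stricter readings gave fewer: the centres lay in the outer 33.3% of the width at opposite ends in 32.6% of all 258, and each mark reached its own end of the peak in 47 (18.2%, 14 to 23.4). Between the marks ran a gap with a median of 571 bp (interquartile range 332.5 to 985.5, up to 2804). The gap was 200 bp or less, about the length of a nucleosome with its linker, in 23 of the 163, and more than 1000 bp in 40. Neither H3K27 mark covered a median of 46% of these peaks (31.5 to 60.8).

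H3K27me3 sat closer to an end than H3K27ac did. Where the marks were apart, H3K27me3 reached an end of the peak in 114 of 163 (69.9%, 62.5 to 76.5), and H3K27ac did so in 62 (38%, 30.9 to 45.7). Among the 159 with the marks side by side, H3K27me3 alone reached an end in 65, both marks in 47, H3K27ac alone in 14 and neither in 33. The centre of H3K27me3 lay in the middle 33.3% of the width in 19 of 163 and that of H3K27ac in 61 of 163. H3K27ac covered more of the peak than H3K27me3 in 114 of 163, with medians of 647 bp (474.5 to 1149.5) and 379 bp (233 to 673).

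**Figure D2:**
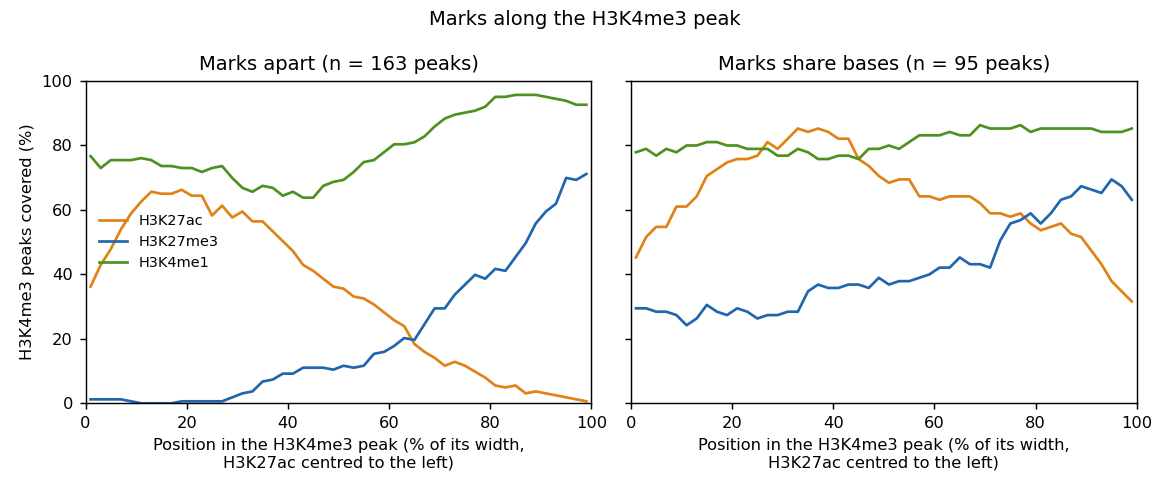
Share of H3K4me3 peaks (%) covered by H3K27ac, H3K27me3 and H3K4me1 along the peak, as % of its width, for the 163 with the marks apart and the 95 with shared bases. The peaks were turned so that H3K27ac is centred to the left, which fixes the opposite slopes of H3K27ac and H3K27me3; H3K4me1, which played no part in turning them, is higher toward the H3K27me3 end in the 163.

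Where the marks shared bases, the shared stretch was short in bp and large against the smaller mark. Its median was 332 bp (interquartile range 223.5 to 474.5, from 5 to 1414 bp). That was 93.6% of the smaller of the clipped stretches in the median peak (53.6 to 100) and 17.2% of the H3K4me3 peak (9.55 to 37.2). When one mark lay within the other, the inner one was H3K27me3 in 30 of 39 (76.9%, 61.7 to 87.4) and H3K27ac in 7, and in 2 both stretches were equally long. In these 39, H3K27ac covered a median of 89.7% of the peak and H3K27me3 34.2%. In the 56 with partial sharing the medians were 53.7% for H3K27ac and 38.5% for H3K27me3. The H3K27me3 peaks of the 39 had a median score of 66.4 (56.3 to 153.1), in a list whose lowest is 50 and whose median is 69.1. In the 56 the median H3K27me3 score was 164.5. The median H3K27ac score was 383.9 in the 39 and 151 in the 56.

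**Figure D3:**
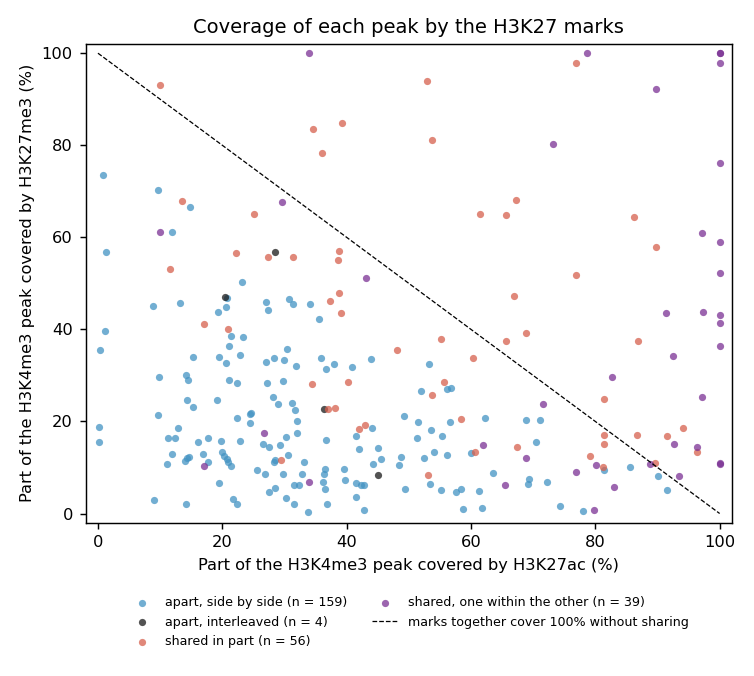
Part of each of the 258 H3K4me3 peaks (%) covered by H3K27ac (x axis) and by H3K27me3 (y axis), 1 point a peak, coloured by layout; above the dashed line the marks must share bases. The 159 side-by-side peaks crowd at low coverage of both marks, with medians of 30.3% and 16% over all 163 with the marks apart, and the 39 nested ones reach to 100%.

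The layout went with the width of the H3K4me3 peak, a feature that also decides how much room there is to keep marks apart. The marks were apart in 3 of 23 peaks below 1000 bp (13%, 4.54 to 32.1), in 51 of 86 from 1000 to under 2000 bp (59.3%, 48.7 to 69.1), in 60 of 78 from 2000 to under 3000 bp (76.9%, 66.4 to 84.9) and in 49 of 71 of 3000 bp or more (69%, 57.5 to 78.6). The interval of the narrowest bin overlapped none of the other 3, which overlapped one another. These intervals count every peak as separate, but several peaks below 1000 bp were close neighbours under the same H3K27 peaks. On chromosome 7, for instance, the peaks at 69607184 to 69607893 (710 bp) and 69607895 to 69608161 (267 bp) met the same H3K27me3 peak. Both had shared bases. The part of such neighbours in the low share below 1000 bp was not tested. The median width was 2484 bp with the marks apart and 1870 bp with shared bases. The authors' H3K4me3 score, which many strong peaks share at about 3100, was 3100 or more in 116 of 163 peaks with the marks apart and in 33 of 95 with shared bases.

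**Figure D4:**
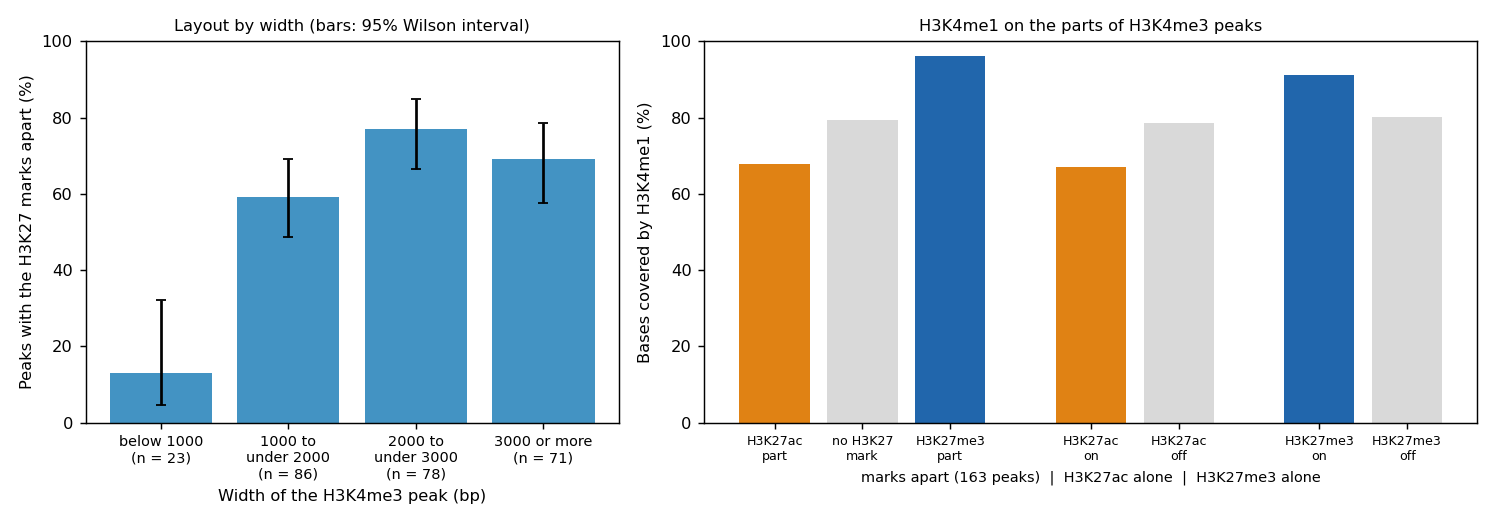
Left, share of peaks with the H3K27 marks apart (%) by width of the H3K4me3 peak, with 95% Wilson intervals as error bars. Right, bases covered by H3K4me1 (%) in the parts of the 163 peaks with the marks apart, and on and off the H3K27 mark in autosomal H3K4me3 peaks with H3K27ac alone or H3K27me3 alone: H3K4me1 is lowest on H3K27ac, near 67%, and highest on H3K27me3, above 90%.

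Set against H3K4me3 peaks with a single H3K27 mark, those with both were wider and their H3K27 peaks were weaker. The median width was 2213 bp (interquartile range 1631.5 to 3110.75), against 1305 bp for 13529 peaks with H3K27ac alone and 1220 bp for 4431 with H3K27me3 alone. A wide peak has more room to touch others, and the rule selects for this: both marks were present in 0.163% of autosomal H3K4me3 peaks below 1000 bp and in 7.53% of those of 3000 bp or more. H3K27ac covered a median of 37.6% of the peak (23.6 to 63.3) and H3K27me3 20.2% (11 to 39.5), whereas H3K27ac covered 91.7% of peaks with H3K27ac alone and H3K27me3 covered 65.7% of peaks with H3K27me3 alone. In bp the stretches differed less, with medians of 757.5 bp of H3K27ac in peaks with both marks, against 957 bp with H3K27ac alone, and 406 bp of H3K27me3 in peaks with both, against 548 bp with H3K27me3 alone. The highest H3K27ac score on a peak had a median of 151 (88 to 380.4), against 611.2 with H3K27ac alone. For H3K27me3 the median was 87.3 (60 to 232.4), against 338.5 with H3K27me3 alone, and 146 of the 258 scored below 100 in a list whose lowest score is 50. Over all peaks of each list the median score was 163.2 for H3K27ac and 69.1 for H3K27me3. The scores were thus low against single-mark H3K4me3 peaks, and not against a typical H3K27me3 peak of the list. Since the rule used these lists, the differences carry no test.

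Within their H3K4me3 peaks both marks also lay less centrally. H3K27ac was centred in the middle 33.3% of the width in 135 of 258 (52.3%, 46.2 to 58.3), against 87% of peaks with H3K27ac alone (86.4 to 87.6). H3K27me3 was centred there in 68 of 258 (26.4%, 21.4 to 32.1), against 64.4% of peaks with H3K27me3 alone (63 to 65.8). H3K27ac reached an end in 118 of 258 (45.7%), against 76.2% with H3K27ac alone, and H3K27me3 in 181 (70.2%), against 91.4% with H3K27me3 alone. A mark that covers most of a peak is centred in it and reaches its ends, so position and coverage are not separate measures here.

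Most overlaps between the H3K27 marks on the autosomes fell on these peaks. Of 11419 autosomal H3K27me3 peaks, 137 overlapped an H3K27ac peak (1.2%, 1.02 to 1.42), and 105 of the 137 (76.6%, 68.9 to 82.9) overlapped 1 of the 258 H3K4me3 peaks. Another 3 lay on a different H3K4me3 peak, which brings the total on H3K4me3 to 108. The rule takes in nearly any H3K4me3 peak on which the marks overlap, so 105 of these 108 largely restates it. The share of all H3K27me3 peaks that lie on H3K4me3 is not given here for comparison. The 258 peaks held 326 distinct H3K27ac peaks and 346 distinct H3K27me3 peaks, 0.994% and 3.03% of the autosomal lists, and 146 of them (56.6%) held a single peak of each.

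H3K4me1 was not used to choose the peaks. It overlapped 247 of the 258 (95.7%, 92.5 to 97.6), against a background of 85.4% of all autosomal H3K4me3 peaks, 90.7% of those with H3K27ac alone (90.2 to 91.2) and 93.1% of those with H3K27me3 alone (92.3 to 93.8). The comparison changed with width. Below 1000 bp the share was 78.3% with both marks (18 of 23, 58.1 to 90.3), 82.9% with H3K27ac alone and 87.3% with H3K27me3 alone. From 2000 to under 3000 bp they were 97.4% with both marks (91.1 to 99.3), 97.5% with H3K27ac alone and 99.4% with H3K27me3 alone, and from 1000 to under 2000 bp they were 96.5%, 93.7% and 95.7% in that order. At 3000 bp or more they were 98.6% (92.4 to 99.8), 97.8% and 98.5%. In each of the 4 bins the interval for both marks overlapped those of the classes with a single H3K27 mark. Of the 11 peaks without H3K4me1, 8 had shared bases, against 36.8% of all 258. Of these 8, 3 were close neighbours on chromosome 7, from 69607184 to 69609563, that met the same H3K27me3 peak and are not separate examples.

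The position of H3K4me1 inside the peaks followed the H3K27 marks. With the marks apart, H3K4me1 covered 67.8% of the H3K27ac bases, 79.3% of the bases with neither H3K27 mark and 96.1% of the H3K27me3 bases. Peak by peak, the covered share was higher on the H3K27me3 part in 83 of 163, higher on the H3K27ac part in 7 and equal in 73. The same order held at the same distance from an end. In the outermost 500 bp inside the 156 side-by-side peaks of at least 1000 bp, H3K4me1 covered 95.6% on the H3K27me3 side and 76.3% on the H3K27ac side. Most of these peaks showed no difference: coverage was equal in 96, higher on the H3K27me3 side in 48 and higher on the H3K27ac side in 12. In the 44 of the 156 in which each mark reached its own end, the values were 96.6% and 62.9%. Just outside, in the first 500 bp beyond the ends of the 156, they were 80% and 75.6%, and neither side led (higher on the H3K27me3 side in 48, on the H3K27ac side in 47). Where the H3K27 marks shared bases, H3K4me1 covered 86.4% of the shared bases, 84.4% of the bases with H3K27me3 only and 76.8% of those with H3K27ac only.

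This difference was also seen in peaks with a single H3K27 mark, so it is not limited to those with both. In H3K4me3 peaks with H3K27ac alone, H3K4me1 covered 66.9% of bases on H3K27ac and 78.5% of bases off it. In peaks with H3K27me3 alone, it covered 91.1% of bases on H3K27me3 and 80.1% off it. No test is given, because the bases of 1 library are not replicates.

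**Figure D5:**
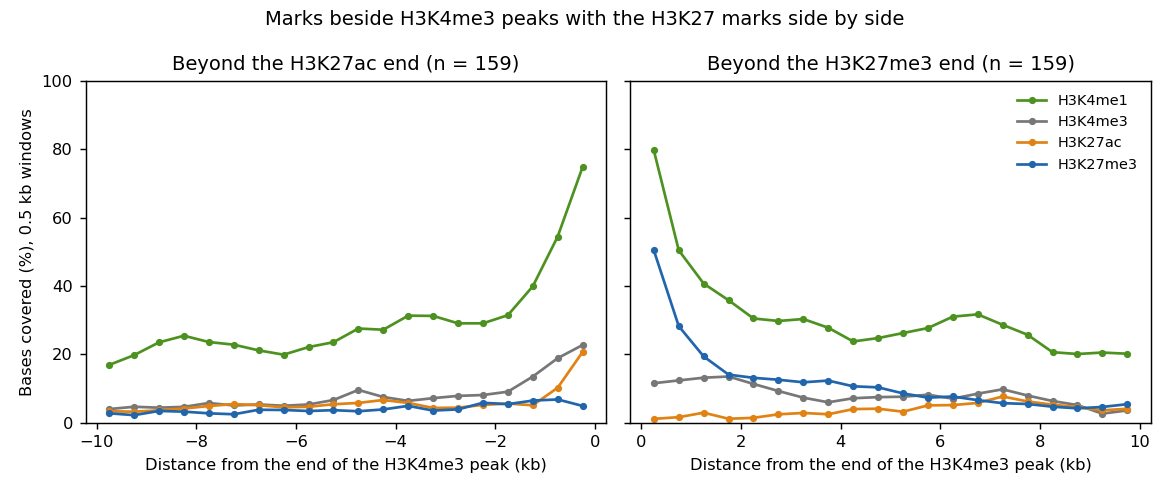
Bases covered by each mark (%) in 0.5 kb windows beyond the H3K27ac end (left) and the H3K27me3 end (right) of the 159 H3K4me3 peaks with the H3K27 marks side by side. H3K27me3 falls from 50.5% in the first window beyond its end and stays above H3K27ac in the first 5 kb, while beyond the H3K27ac end H3K27ac falls from 20.7% and H3K27me3 stays between 2% and 7%. On that side H3K27me3 exceeds H3K27ac at 1000 to 1500 bp, 6.5% against 5.12%, and at 2000 to 2500 bp, 5.85% against 5.22%. Beyond the H3K27me3 end H3K27ac is the higher from 7000 to 9000 bp.

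The asymmetry continued outside the peak over the first 5 kb beyond the H3K27me3 end, and less clearly beyond the H3K27ac end. Beyond the H3K27me3 end of the 159 side-by-side peaks, H3K27me3 covered 50.5% of the first 500 bp and H3K27ac 1.16%, and beyond the H3K27ac end H3K27me3 covered 4.94% and H3K27ac 20.7%. At 1000 to 1500 bp beyond the H3K27ac end the values were 6.5% for H3K27me3 and 5.12% for H3K27ac. At 2000 to 2500 bp they were 5.85% and 5.22%, so H3K27ac did not lead throughout on that side. Beyond the H3K27me3 end H3K27ac was the higher from 7000 to 9000 bp, with 7.7% against 5.74% at 7000 to 7500 bp. Part of the asymmetry is the outer portion of the peaks that met the rule. With the peaks that met the rule left out, another H3K27me3 peak lay within 5 kb of the H3K27me3 end in 55 of 159 (34.6%, 27.6 to 42.3) and of the H3K27ac end in 29 (18.2%, 13 to 25). Another H3K27ac peak lay within 5 kb of the H3K27me3 end in 16 (10.1%, 6.29 to 15.7) and of the H3K27ac end in 30 (18.9%, 13.5 to 25.7).

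The nearest H3K4me3 neighbours were read against the class shares among all autosomal H3K4me3 peaks, which were 48.4% for H3K27ac alone and 15.8% for H3K27me3 alone. A class counts every H3K27 peak on a neighbour, also one that runs over from the chosen peak. How many neighbours were marked by such a common peak was not counted, so the shares below are not independent of the rule. On the H3K27me3 side, 53 of the 159 had another H3K4me3 peak within 5 kb, and the nearest carried H3K27me3 alone in 35 of the 53 (66%, 52.6 to 77.3) and H3K27ac alone in 4 (7.55%, 2.97 to 17.9). On the H3K27ac side, 60 had such a neighbour, and it carried H3K27ac alone in 32 of the 60 (53.3%, 40.9 to 65.4) and H3K27me3 alone in 8 (13.3%, 6.91 to 24.2), both near the class shares. A neighbour with both marks was found on the H3K27me3 side in 4 cases and on the H3K27ac side in 2. When H3K4me3 peaks within 1 kb were joined first, 292 joined peaks carried both marks, and the share with shared bases was 27.1%.

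The H3K27me3 around these peaks ranged from a lone small peak to a domain with 121085 bp covered. H3K27me3 peaks were joined into domains across gaps of up to 5 kb, and the 258 peaks lay in 228 domains, 19 of which held more than 1. The domain was a single H3K27me3 peak for 103 of the 258, and the marks shared bases in 24 of these (23.3%, 16.2 to 32.3). In domains of several H3K27me3 peaks with under 10 kb covered, bases were shared in 49 of 127 (38.6%, 30.6 to 47.3). In domains covering 10 kb or more, they were shared in 22 of 28 (78.6%, 60.5 to 89.8), but these 28 lay in 15 domains, of which one held 7 and another 5. All of the 7 and all of the 5 had shared bases, and the interval counts each peak as separate. In the 28 the median H3K4me3 width was 1910 bp, against 2349 bp for the 103, and the median H3K27me3 stretch was 1207 bp, against 296 bp. H3K4me3 width and H3K27me3 length thus differed along with the layout, and their part in it was not tested.

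The largest group was a run of 7 H3K4me3 peaks within 21.7 kb on chromosome 6, from 52106665 to 52128333 (mm9), near the start of a domain from 52099332 to 52228455 in which H3K27me3 covered 121085 bp. All 7 had shared bases. In the first, at 52106665 to 52110388, H3K27ac covered 2056 bp, H3K27me3 1410 bp and both 359 bp, and the H3K27ac peak scored 993.65. The second, at 52110405 to 52111534, had 540 bp of both marks, and the third, at 52112919 to 52115421, had 1172 bp. In the next 3, from 52115514 to 52118886, all the H3K27ac bases, 890, 218 and 1288 bp, lay under H3K27me3. The last, at 52124957 to 52128333, had 1167 bp of H3K27ac, of which 1092 bp also carried H3K27me3. These 7 peaks share 8 H3K27ac peaks and 11 H3K27me3 peaks and are not separate examples.

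A second run had a like layout. On chromosome 11, 4 H3K4me3 peaks from 96202030 to 96216572 lay in a domain from 96111402 to 96236792 with 107740 bp of H3K27me3, and all 4 had shared bases. The peak at 96209746 to 96211636 had the most shared bases of the 258: H3K27ac covered 1455 bp, H3K27me3 1850 bp and both 1414 bp of its 1891 bp. In the peak at 96202030 to 96203958, H3K27ac covered 1664 bp, H3K27me3 1244 bp and both 1106 bp, with scores of 543.94 for H3K27ac and 2600.2 for H3K27me3. Of the 5 peaks with the most shared bases, 4 belong to these runs, and the other, on chromosome 11 at 11934759 to 11937444, had 1154 bp of both marks in 2686 bp. Of all 258, 50 lay in a run of 2 or more within 50 kb. With the widest peak of each run kept, 228 remained and bases were shared in 30.3%.

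The 5 peaks with the marks apart on opposite sides of the middle and the longest smaller stretch were wide, which a ranking by bp favours, and in 1 of them each mark reached its own end. The widest of the 258, on chromosome 4 at 48055258 to 48062165 (6908 bp), carried 2456 bp of H3K27ac and 2922 bp of H3K27me3 with 1341 bp between them, and by the smaller of its H3K27 scores it stood at rank 3, with 669.15 for H3K27ac and 2091.53 for H3K27me3. On chromosome 11 at 69612722 to 69619385 (6664 bp), 1520 bp of H3K27ac and 2298 bp of H3K27me3 were 460 bp apart, and H3K4me1 covered the whole peak. The peak on chromosome 7 at 5002312 to 5006210 divided almost evenly, with 1243 bp of H3K27ac and 1248 bp of H3K27me3 at a gap of 644 bp. On chromosome 8, the peak at 73386394 to 73389789 had 1158 bp of H3K27ac and 1544 bp of H3K27me3 that reached opposite ends with 126 bp between them, and the peak at 108659568 to 108663049 had 1095 and 1583 bp with 71 bp between them.

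The widest gaps mostly belonged to peaks in which one of the marks was short. On chromosome 17 at 63228515 to 63232527, H3K27ac covered 874 bp and H3K27me3 123 bp, 2804 bp apart. On chromosome 13 at 46058321 to 46061882 the stretches were 504 bp of H3K27ac and 71 bp of H3K27me3 at a gap of 2407 bp. On chromosome 11 at 68930900 to 68937213, 15 bp of H3K27ac and 1189 bp of H3K27me3 lay 2347 bp apart. An exception was chromosome 14 at 62299326 to 62304240, where 749 bp of H3K27ac and 1676 bp of H3K27me3, with an H3K27me3 score of 1511.95, were separated by 2299 bp.

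Strong peaks of both H3K27 marks were found in either layout. By the lower of the scores, the first was the leftmost peak of the chromosome 6 run. The next, on chromosome 7 at 53085115 to 53086770, scored 845.79 for H3K27ac and 802.78 for H3K27me3, and its 1515 bp of H3K27ac abutted 84 bp of H3K27me3 with no base between them and none shared. On chromosome 9 at 62981161 to 62982417, 126 bp of H3K27ac and 1170 bp of H3K27me3 overlapped by 39 bp, with scores of 586.14 and 607.97. The peak at rank 3 by width, on chromosome 10 at 84217333 to 84223872, held 2047 bp of H3K27ac and 3644 bp of H3K27me3, with 1100 bp of both.

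The rule's limit of 1 bp cut through a continuous range. At the lower end, the peak on chromosome 17 at 45692608 to 45693514 held 1 bp of H3K27ac and 141 bp of H3K27me3. On chromosome 11, the peak at 18920561 to 18921188 held 5 bp of H3K27me3, and the peak at 29924104 to 29926081 held 5 bp of H3K27ac. Just outside, H3K27ac began 3 bp from a peak with H3K27me3 on chromosome 2 at 118374322 to 118375506, H3K27me3 began 4 bp from a peak with H3K27ac on chromosome 2 at 167174760 to 167175658, and H3K27ac began 4 bp from a peak with H3K27me3 on chromosome 8 at 94326016 to 94327086. The smaller mark covered 100 bp or less in 31 of the 258, and 39 autosomal H3K4me3 peaks with a single H3K27 mark had the other within 100 bp.

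The peaks were spread over all autosomes, with 4 on chromosome 16 to 24 on chromosome 11. As a share of the H3K4me3 peaks of a chromosome they ranged from 0.456% on chromosome 5 to 1.5% on chromosome 6, with a median of 0.939%. The 21 on chromosome 6 include the run of 7, which are not separate examples, and the next highest share was 1.47% on chromosome 18. Shared bases made up 6 of 9 on chromosome 12 and 6 of 11 on chromosome 3. On chromosomes 6 and 11, which hold the runs described above, they made up less, 10 of 21 and 10 of 24. Low shares were 1 of 12 on chromosome 18, 1 of 10 on chromosome 9 and 1 of 9 on chromosome 15.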

How the data were processed

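The authors deposited 4 lists of peaks from chromatin immunoprecipitation of EpiSC9 cells, 1 library per mark, with positions on mm9 and a score per peak. Bowtie 0.12.9, MACS 1.4 and Cufflinks are named in the submitters' processing notes without a role or order, and the control, duplicate handling and threshold used for peak calling are not stated in the labels. The deposited score served only to describe and rank peaks of the same list, and no read counts were used, so depth is unknown. A deeper library gives more and wider peaks, which raises every overlap with it.

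H3K27ac and H3K27me3 intervals were clipped to each H3K4me3 peak, and covered, shared and empty bases, gaps, order and centres were computed from them. Positions are 1-based. Shares carry 95% Wilson intervals, which cover counting over peaks only. With 1 library per mark no test over samples was possible. The layout computation was tested on simulated data and recovered 400 of 400 planted layouts. The peaks and definitions were chosen with earlier results of these data known. Named regions are the 5 peaks each with the most shared bases, the longest stretches on opposite sides of the middle, the largest gaps, the highest lower score and the greatest width, the longest run in a domain, and those at the limit of the rule. The run on chromosome 11 and the extremes by chromosome were named after their values were seen. Gene positions of GRCm38 were not transferred to mm9, so no gene is named. Python 3.11.15 with numpy 2.4.6, scipy 1.17.1, pandas 2.3.3 and matplotlib 3.10.9 was used.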

Additional observations from a re-analysis of the deposited data

Results flagged for a closer look

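On chromosome X, left out by the rule, 41 of 971 H3K4me3 peaks met both H3K27 marks (4.22%, Wilson interval 3.13 to 5.68). It is given here as a signal in data outside the comparisons above. Fewer of the H3K27me3 peaks were autosomal, 11419 of 16975, than of the H3K4me3 peaks, 27970 of 28941. The part of this in the share on X was not tested. The marks shared bases in 34 of the 41 (82.9%, 68.7 to 91.5), and the other 7 had them apart, on opposite sides of the middle. Median values for X were 1397 bp of width and an H3K27me3 score of 61.4, and 11 of the 41 (26.8%, 15.7 to 41.9) overlapped H3K4me1. The difference from the autosomes was not tested.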

How the results depend on the processing

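Joining H3K27 peaks within 500 bp, asking for 100 bp of each mark, keeping 1 peak per H3K27me3 peak and leaving out domains of 10 kb or more moved none of the 5 values (number, share with shared bases, share apart on opposite sides of the middle, H3K4me1 share, median width) beyond its binomial interval or, for the number, 1.5 times. Asking for 10% coverage by each mark gave shared bases in 44.8%. Counting marks within 200 bp as meeting gave 45.7%. H3K27 peaks at or above their median score left 73 peaks. H3K4me3 peaks at or above their median score gave 29.9% shared, 65.2% on opposite sides and a width of 2491.5 bp. Joining H3K4me3 peaks within 1 kb gave 27.1% shared, 65.8% on opposite sides, 98.6% with H3K4me1 and 3000 bp. The share on opposite sides fell to 18.2% where each mark had to reach its own end and to 32.6% for centres in the outer 33.3% of the width. One peak per run within 50 kb, chosen after the data were seen, gave 30.3% and 65.4%. On X the number was 41, with 82.9% shared, 17.1% on opposite sides, 26.8% with H3K4me1 and 1397 bp. The causes were not tested. No paired analysis over samples was possible because each mark had 1 library. Unknown depth and weak H3K27me3 peaks limit every share.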
